A study of Homo sapiens with 4 samples.

Results

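The genes described here are the oxygen-sensing transcription factors of the HIF pathway and a set of targets that mark clear cell renal carcinoma. They are VHL, EPAS1, HIF1A, ARNT, CA9, CA12, VEGFA, ADM, NDRG1 and NDUFA4L2, taken by symbol from the rows of the deposited expression table, 10 genes of 57820. The RNA came from an established line of human renal carcinoma, cultured in DMEM with 10% serum and kept without amino acids for 12 h before sequencing. There were 2 libraries labelled shGLUD1, with a short hairpin RNA against GLUD1, the mitochondrial glutamate dehydrogenase, and 2 labelled shNT, the non-targeting control. All 4 libraries came from starved cells of this line, so both groups share its genotype and the starvation, and no fed cells were compared.

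HIF is a pair of proteins, an oxygen-regulated alpha subunit (HIF1A or EPAS1, which encodes HIF-2alpha) and the constant beta subunit ARNT. In oxygenated cells prolyl hydroxylases, which use alpha-ketoglutarate as a substrate, mark the alpha subunit, and the VHL ubiquitin ligase then has it destroyed. Clear cell renal carcinoma usually loses VHL function, so HIF stays active and its targets are transcribed at normal oxygen. The labelled line is known for a VHL defect and for making HIF-2alpha protein without HIF-1alpha protein, so an HIF1A mRNA level there says nothing of that protein.

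Depth is not known, since TPM (transcript counts per length, scaled to a sum of 1000000 in each library) keep no read totals. The targeted gene GLUD1 measured 13.52 and 19.82 TPM in libraries labelled shGLUD1 and 18.09 and 17.43 TPM in the shNT libraries. Replicate 2 labelled shGLUD1 was thus above both controls (log2 fold change -0.11, SE 0.19, limma adjusted p = 0.631), although after the rescaling described next GLUD1 was lower (-0.84, SE 0.15, adjusted p = 0.00201), and every direction below is drawn from the labels. Over the 12524 genes tested the median log2 fold change was 0.63, so each change is also given after rescaling the libraries by median ratios, which leaves the median gene at -0.01. Of 6 epithelial and cytoskeletal markers, KRT8 measured 64.10 TPM in both shGLUD1 libraries and 41.51 and 46.76 TPM in shNT, and VIM 2901.83 and 3755.83 TPM in shGLUD1 and 930.90 and 890.77 TPM in shNT, while KRT18, KRT19, EPCAM and CDH1 did not pass 1.87 TPM in any library. The renal markers were low: PAX8, a renal lineage factor, was at 5.18 to 8.75 TPM, whereas LHX1 and EMX2 were listed at 0 in all libraries and PAX2 in 3 of them. The 6 leukocyte markers summed to 208.87 and 241.99 TPM in shGLUD1 and 160.24 and 147.21 TPM in shNT, nearly all of it CD68, a lysosomal gene, while PTPRC did not pass 0.01 TPM in any library. The 6 fibroblast markers summed to 19.33 and 18.81 TPM in shGLUD1 and 11.73 and 13.74 TPM in shNT, and the 3 endothelial markers found to between 0.07 and 0.24 TPM; the part of these sums in the results was not tested.

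All 4 genes of the HIF machinery were higher in shGLUD1, and the targets did not follow a common direction. CA9 and CA12 were higher, ADM was lower, and VEGFA and NDUFA4L2 did not pass the test on TPM. Of the 10 genes, 7 were higher and 1 was lower (adjusted p under 0.05 in limma over all genes), against 56.7% of all genes tested called higher and 7.77% called lower. After rescaling 6 were higher and 3 lower, against 22.7% and 28.4% of all genes. The median log2 fold change of the 10 was 1.27 (0.56 rescaled) beside 0.63 (-0.01 rescaled) for all genes. The groups of libraries did not overlap in 9 of the 10, beside 83.4% of all genes tested. For a lone gene an exact permutation test, with 2 libraries against 2, has 0.333 as its smallest two-sided p. In bulk RNA a lower level can mean fewer cells that express a gene or less RNA per cell, and these cannot be told apart.

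**Figure D1:**
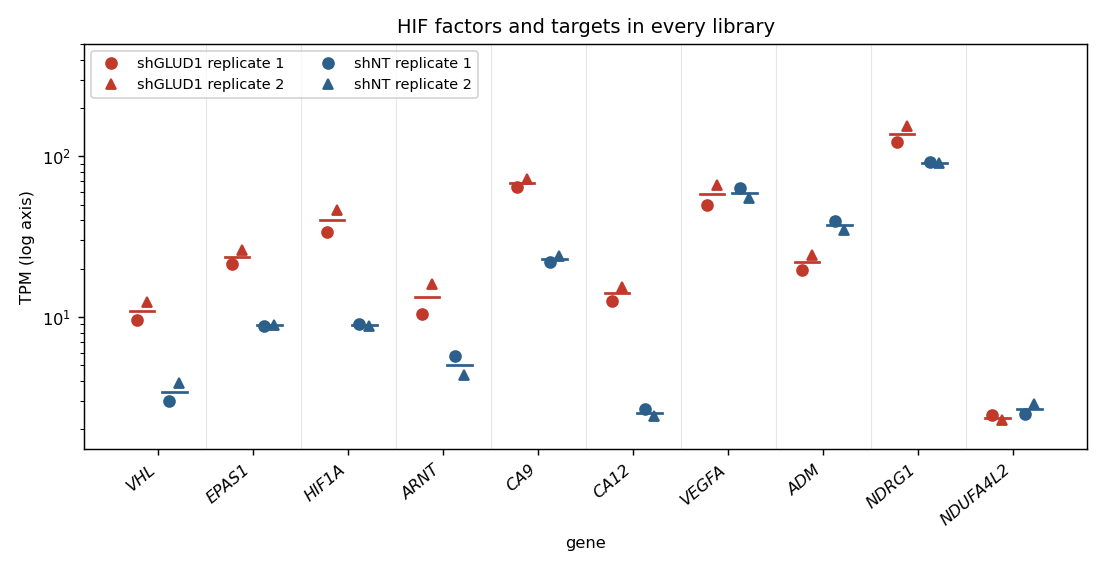
TPM of each gene in every library on a log axis, red for shGLUD1 and blue for shNT, circles for replicate 1, triangles for replicate 2, and short lines at the group means. The red points lie above the blue ones for VHL, EPAS1, HIF1A, ARNT, CA9, CA12 and NDRG1, below them for ADM and NDUFA4L2, and among them for VEGFA.

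VHL (ENSG00000134086, GRCh38 chromosome 3, 10141008 to 10152220, plus strand) encodes the substrate-binding subunit of the ligase that destroys hydroxylated HIF alpha. Its mRNA was at 9.54 and 12.36 TPM in shGLUD1 and at 2.99 and 3.88 TPM in shNT. Both shGLUD1 libraries were above both controls, 3.19-fold in the means (a log2 fold change on TPM + 1 of 1.43, SE 0.23, limma adjusted p = 3.4e-04). Rescaled, VHL was still higher (0.77, SE 0.18, adjusted p = 0.00741). The level is that of the mRNA alone, and says nothing of whether the protein of this line works.

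EPAS1 (ENSG00000116016, chromosome 2, 46293667 to 46386703, plus strand) encodes HIF-2alpha, the alpha subunit that drives renal carcinoma. It was at 21.25 and 26.12 TPM in shGLUD1 and at 8.86 and 8.96 TPM in shNT. The control libraries lay close together and well below the others, with 1.31 as the log2 fold change (SE 0.17, limma adjusted p = 1.1e-04; rescaled 0.58, adjusted p = 0.00704). HIF1A (ENSG00000100644, chromosome 14, 61695513 to 61748259, plus strand), the alpha subunit that acts in most tissues, was at 33.72 and 46.51 TPM in shGLUD1 and at 9 and 8.84 TPM in shNT. Among the 4 genes of the machinery it had the largest log2 fold change, 2.03 (SE 0.18, limma adjusted p = 1.2e-05; rescaled 1.30, adjusted p = 2.2e-04), and 1.71% of all genes tested had a larger one. HIF1A-AS1, on the opposite strand with 117 bases of exon in common, was at 0 in both shGLUD1 libraries and at 0.55 and 0.10 TPM in shNT, and the library kit is not stated to keep strand.

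The balance between the mRNAs of the alpha subunits differed between the groups. The ratio of EPAS1 to HIF1A TPM, which does not depend on scaling between libraries, was 0.63 and 0.562 in shGLUD1 and 0.984 and 1.01 in shNT. In the control libraries the alpha mRNAs were thus at nearly equal levels per length, and in shGLUD1 HIF1A was ahead. ARNT (ENSG00000143437, chromosome 1, 150809705 to 150876768, minus strand), the partner both subunits need to bind DNA, was at 10.49 and 16.07 TPM in shGLUD1 and at 5.70 and 4.39 TPM in shNT (log2 fold change 1.22, SE 0.24, limma adjusted p = 0.00119). It had the smallest log2 fold change of the 4 and the largest SE. Rescaled it was 0.53 (SE 0.19, adjusted p = 0.0468), and quantile normalization ended the call (0.46, adjusted p = 0.0968).

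CA9 and CA12 encode carbonic anhydrases of the cell surface, which hydrate carbon dioxide outside the cell and so help an acid-producing tumour keep its internal pH. CA9 (ENSG00000107159, chromosome 9, 35673856 to 35681159, plus strand) is a classic marker of clear cell carcinoma. The promoters of CA9 and CA12, both higher in shGLUD1, and of ADM, which was lower, are shown. They serve to compare the core of the hypoxia response element, the DNA word bound by HIF. Each runs 5′ to 3′ on its gene's strand from 250 bases before to 50 bases after the RefSeq start (GRCh38.p14), with capitals for the cores ACGTG and GCGTG on either strand (CACGT and CACGC when read on the other).
CA9 chr9:35673678-35673977, plus strand: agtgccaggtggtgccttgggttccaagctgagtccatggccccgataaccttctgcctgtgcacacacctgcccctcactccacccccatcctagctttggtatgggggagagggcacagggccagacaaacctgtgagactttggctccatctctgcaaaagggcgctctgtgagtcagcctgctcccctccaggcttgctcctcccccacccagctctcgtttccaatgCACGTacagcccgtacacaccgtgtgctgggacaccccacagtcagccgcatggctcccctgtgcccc
CA12 chr15:63381797-63382096, minus strand: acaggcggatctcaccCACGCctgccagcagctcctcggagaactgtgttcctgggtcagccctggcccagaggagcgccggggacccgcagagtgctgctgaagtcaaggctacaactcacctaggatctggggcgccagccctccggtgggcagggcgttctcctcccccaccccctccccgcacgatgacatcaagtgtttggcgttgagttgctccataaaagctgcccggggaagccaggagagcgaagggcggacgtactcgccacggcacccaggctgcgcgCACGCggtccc
ADM chr11:10304823-10305122, plus strand: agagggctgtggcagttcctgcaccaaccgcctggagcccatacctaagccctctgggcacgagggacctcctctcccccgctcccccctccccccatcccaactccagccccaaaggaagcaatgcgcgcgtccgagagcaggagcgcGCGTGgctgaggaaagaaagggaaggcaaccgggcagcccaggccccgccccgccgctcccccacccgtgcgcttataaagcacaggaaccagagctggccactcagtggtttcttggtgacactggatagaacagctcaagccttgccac
The CA9 window held 1 ACGTG core, on the opposite strand with its first printed base at position -18 from the start, and no GCGTG. The CA12 window held 2 GCGTG cores, both on the opposite strand, at -234 and 40, and the ADM window held 1, at -101. Of 35116 promoter windows of this length in the table, 21.4% held ACGTG and 36.5% held GCGTG, so such a match is common and is no site by itself. The table had windows for 6 of the 10 genes; those of EPAS1 and HIF1A each held 1 GCGTG core, in 1 of 2 windows for HIF1A, and that of ARNT held neither core.

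CA9 was at 64.34 and 72.43 TPM in shGLUD1 and at 22.13 and 23.99 TPM in shNT. The groups were far apart relative to their spread, 2.97-fold in the means (log2 fold change 1.53, SE 0.13, limma adjusted p = 1.0e-05; rescaled 0.77, adjusted p = 9.7e-04). ARHGEF39, on the opposite strand with 643 bases of exon in common with CA9, was at 2.92 and 5.02 TPM in shGLUD1 and at 0.81 and 1.17 TPM in shNT, well under CA9 in every library; how reads in the overlap were divided is not known. CA12 (ENSG00000074410, chromosome 15, 63321378 to 63382161, minus strand) was at 12.62 and 15.43 TPM in shGLUD1 and at 2.67 and 2.42 TPM in shNT. Its mean was 5.51-fold higher, the largest change of the 10 genes on TPM and rescaled (log2 fold change 2.08, SE 0.21, limma adjusted p = 2.7e-05, and rescaled 1.43, adjusted p = 2.9e-04). On TPM 1.41% of all genes tested had a larger log2 fold change. This rank did not hold under every alternative. CA12 was below HIF1A under quantile normalization (1.35 beside 1.42) and without shGLUD1 replicate 1 (2.21 beside 2.26). With length and GC trends removed CA12 (1.74) was below both HIF1A (1.89) and CA9 (1.86). CA9 remained the more abundant of the pair: the ratio of CA9 to CA12 TPM was 5.1 and 4.69 in shGLUD1 and 8.29 and 9.91 in shNT. The lower ratio in shGLUD1 depends on the processing. With length and GC trends removed, CA9 had the larger log2 fold change of the pair (1.86, beside 1.74 for CA12).

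VEGFA and ADM encode secreted factors that act on blood vessels. VEGFA (ENSG00000112715, chromosome 6, 43770184 to 43786487, plus strand), the main growth signal for endothelium and the target of several renal cancer drugs, was at 49.76 and 66.01 TPM in shGLUD1 and at 63.92 and 54.84 TPM in shNT. The groups overlapped, with a log2 fold change of -0.05 and a 95% interval of -0.38 to 0.29 (limma adjusted p = 0.80). That interval lies below the median gene, and after rescaling VEGFA was lower (-0.81, SE 0.13, adjusted p = 0.00138). An antisense gene listed as RP1-261G23 (ENSG00000272114), which has 188 bases of exon in common with VEGFA, was at 128.87 and 79.02 TPM in shGLUD1 and at 51.06 and 80.14 TPM in shNT. It was above VEGFA in both shGLUD1 libraries and in shNT replicate 2 and below it in shNT replicate 1, and without strand its reads in the overlap cannot be told from those of VEGFA.

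ADM (ENSG00000148926, chromosome 11, 10304680 to 10307397, plus strand) encodes adrenomedullin, a peptide that widens vessels. It was at 19.63 and 24.29 TPM in shGLUD1 and at 39.66 and 35.00 TPM in shNT. Both shGLUD1 libraries were below both controls, and ADM was the 1 member of the 10 called lower on TPM (log2 fold change -0.74, SE 0.15, limma adjusted p = 0.00165). Rescaled, it was lower by more (-1.49, SE 0.13, adjusted p = 9.8e-05), and 3.53% of all genes tested had a smaller log2 fold change.

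NDRG1 (ENSG00000104419, chromosome 8, 133237171 to 133302022, minus strand) encodes a stress-responsive cytoplasmic protein that hypoxia induces in many cell types. It was at 122.24 and 154.81 TPM in shGLUD1 and at 92.21 and 90.46 TPM in shNT, the highest level of the 10 genes in every library. On TPM it was higher (log2 fold change 0.59, SE 0.12, limma adjusted p = 0.00202), close to the median gene, and rescaled the direction turned without a call (-0.18, SE 0.11, adjusted p = 0.202). The data thus show a higher share of transcripts for NDRG1, and no change relative to the typical gene that passed the test.

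NDUFA4L2 (ENSG00000185633, chromosome 12, 57234903 to 57240715, minus strand) encodes a mitochondrial protein that HIF induces and that resembles NDUFA4, a subunit of the respiratory chain. It is often very high in clear cell tumours, but in these libraries it was the lowest or next to lowest of the 10 genes, at 2.45 and 2.29 TPM in shGLUD1 and 2.48 and 2.86 TPM in shNT. The groups did not overlap but lay within 1 TPM of each other, and the log2 fold change was -0.12 with a 95% interval of -0.65 to 0.40 (limma adjusted p = 0.669). Rescaled it was lower (-0.67, adjusted p = 0.0212). It shares 33 bases of exon with SHMT2 on the opposite strand, which was at 223.45 and 233.01 TPM in shGLUD1 and 277.80 and 266.02 TPM in shNT; whether any of the NDUFA4L2 level came from SHMT2 reads was not tested. NDUFA4 itself was lower, at 127.39 and 128.78 TPM in shGLUD1 and 197.03 and 195.83 TPM in shNT (log2 fold change -0.61, limma adjusted p = 3.2e-04; rescaled -1.39). The ratio of NDUFA4L2 to NDUFA4 was 0.0192 and 0.0178 in shGLUD1 and 0.0126 and 0.0146 in shNT.

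**Figure D2:**
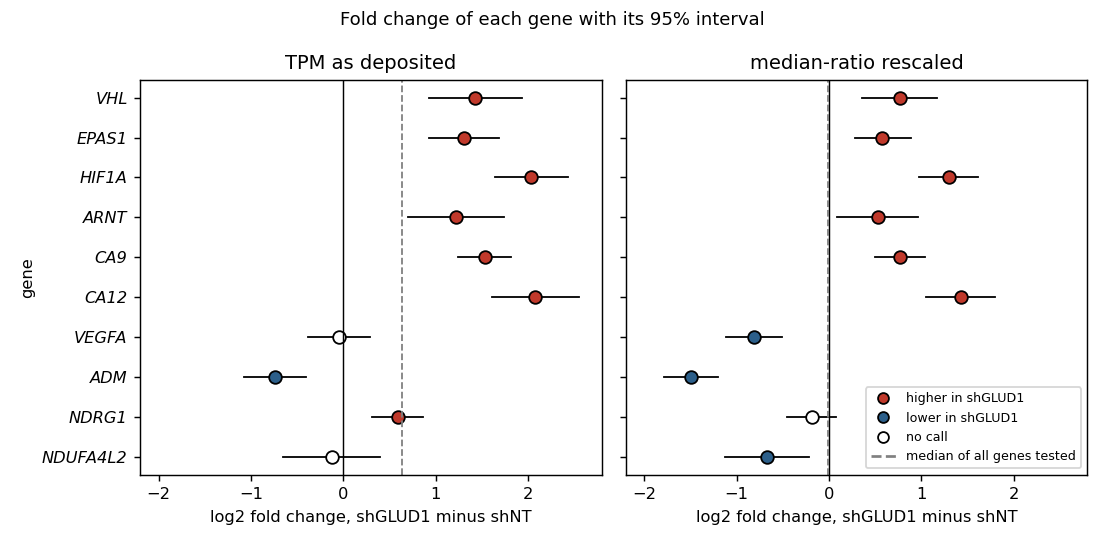
Log2 fold change of shGLUD1 against shNT for each gene with its 95% interval from limma, on TPM + 1 (left) and after median-ratio rescaling (right), red for higher, blue for lower, white for no call. The dashed line is the median of all genes tested, 0.63 on TPM and -0.01 rescaled; NDRG1 at 0.59 sits on it, the HIF machinery and the carbonic anhydrases lie to its right, and VEGFA, ADM and NDUFA4L2 to its left.

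The order of the levels, which TPM allow because they are per length, differed between the groups. In shGLUD1 both libraries ran NDRG1, CA9, VEGFA, HIF1A, EPAS1 and ADM from the highest down. In shNT both ran NDRG1, VEGFA, ADM and CA9, followed by HIF1A and EPAS1 at nearly the same level. Some neighbours changed order between the libraries of a group. In shGLUD1 these were CA12 and ARNT, and in shNT they were HIF1A and EPAS1, and CA12 and NDUFA4L2. CA9 and VEGFA, EPAS1 and ADM, and ARNT and VHL kept their order within both shGLUD1 libraries, although their ranges over these libraries overlapped.

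Other genes of the pathway were read from 10 lists of 81 genes, of which 55 averaged at least 1 TPM and were tested. Of these 38 were higher and 7 lower in shGLUD1 (13 and 13 rescaled), beside 56.7% and 7.77% of all genes tested (22.7% and 28.4% rescaled). Their median log2 fold change was 0.77 beside 0.63 for all genes (0.02 beside -0.01 rescaled). Of 7 tested oxygen sensors and HIF modifiers 6 were higher and none lower, against 56.7% and 7.77% of all genes, and rescaled 1 and 1, against 22.7% and 28.4%. EGLN1, the main HIF prolyl hydroxylase, was at 4.27 and 8.18 TPM in shGLUD1 and 2.44 and 1.11 TPM in shNT (log2 fold change 1.37, limma adjusted p = 0.00378; rescaled 0.79, adjusted p = 0.0546), and it lost its call without shGLUD1 replicate 2 (0.97, adjusted p = 0.0683). The coactivators EP300 and CREBBP, low in all libraries, were higher by 1.14 and 0.96. CITED2, which competes with HIF for them, was higher by 0.97 (limma adjusted p of the 3 between 0.00122 and 0.00624). EP300 alone of the 3 passed rescaled (0.78). EP300 was at 1.87 and 2.08 TPM in shGLUD1 and 0.32 and 0.38 TPM in shNT. CREBBP was at 1.77 and 2.12 TPM in shGLUD1 and 0.43 and 0.60 TPM in shNT. Both reached the filter only through the shGLUD1 libraries, so the filter itself favoured their calls of higher, which enter the counts above. EGLN3, itself a hydroxylase and HIF target, did not reach the filter, at 0.41 and 0.26 TPM in shGLUD1 and 0.25 and 0.19 TPM in shNT.

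The partners of VHL in its ligase did not move as a unit. CUL2, the scaffold, was at 6.34 and 9.42 TPM in shGLUD1 and 1.01 and 1.77 TPM in shNT (log2 fold change 1.89, limma adjusted p = 1.9e-04; rescaled 1.31). TCEB1, the elongin C gene, was lower (158.71 and 159.58 TPM in shGLUD1, 207.13 and 211.93 TPM in shNT; -0.39, limma adjusted p = 0.00395; rescaled -1.17), and TCEB2 and RBX1 did not pass unrescaled (-0.11 and 0.11) but were lower rescaled (-0.89 and -0.66). With length and GC trends removed both were called higher (0.41 and 0.35). Of the other HIF subunits, ARNT2 was higher (2.18 and 3.19 TPM in shGLUD1, 1.00 and 1.08 TPM in shNT; 0.84, limma adjusted p = 0.0142), a call lost rescaled and in 3 of 4 fits without 1 library (highest adjusted p = 0.0764, without shGLUD1 replicate 2, shNT replicate 1 or shNT replicate 2). HIF3A was under the filter, at 0.50 and 1.43 TPM in shGLUD1 and 0.06 and 0 TPM in shNT.

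Among 18 targets of metabolism and mitophagy, which HIF-1 chiefly controls in other cells, 15 were higher and 2 lower (56.7% and 7.77% of all genes), and rescaled 6 and 2 (22.7% and 28.4% of all genes). The list median was 0.94, and 0.24 rescaled. LDHA, lactate dehydrogenase A, was at 1039.03 and 1334.52 TPM in shGLUD1 and 250.93 and 266.50 TPM in shNT (log2 fold change 2.18, rescaled 1.41). BNIP3L, a mitophagy receptor, rose by 2.12 (rescaled 1.41), GBE1, the glycogen branching enzyme, by 1.61 (0.88), and PFKFB4, a regulator of glycolytic flux, by 1.48 (0.81); adjusted p of these 4 lay between 6.2e-07 and 1.4e-04 in limma. The 2 lower genes were SLC2A1, the glucose transporter, with 36.54 and 41.07 TPM in shGLUD1 and 53.44 and 48.49 TPM in shNT (-0.39, rescaled -1.14), and ANKRD37, with 7.49 and 8.23 TPM in shGLUD1 and 14.24 and 12.12 TPM in shNT (-0.68, rescaled -1.38). On TPM the call of SLC2A1 was lost without shGLUD1 replicate 1, shNT replicate 1 or shNT replicate 2 (highest adjusted p = 0.213), and that of ANKRD37 without shNT replicate 1 (adjusted p = 0.164) and with length and GC trends removed (0.174).

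Among 13 tested targets of growth, vessels and matrix, chiefly under HIF-2 in renal carcinoma, 10 were higher and 1 lower (56.7% and 7.77% of all genes), and rescaled 4 and 3 (22.7% and 28.4% of all genes). The list median was 0.78, and 0.08 rescaled, and the share called lower is near that of all genes. CCND1, the cyclin D1 gene, was at 87.26 and 103.52 TPM in shGLUD1 and 35.32 and 34.89 TPM in shNT (log2 fold change 1.41, limma adjusted p = 1.3e-05; rescaled 0.65). TGFA, a ligand of the EGF receptor, rose by 1.29, and the collagen-modifying enzymes LOX and PLOD2 each by 1.25, and after rescaling 0.69, 0.57 and 0.52 still passed. The 1 lower gene was SLC7A5, an amino acid transporter, with 21.12 and 21.26 TPM in shGLUD1 and 33.03 and 32.11 TPM in shNT (-0.60, limma adjusted p = 0.00314; rescaled -1.34). EPO and CXCR4 did not pass 0.11 TPM in any library. Both lists thus held higher and lower genes, and the difference between the lists was not tested.

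**Figure D3:**
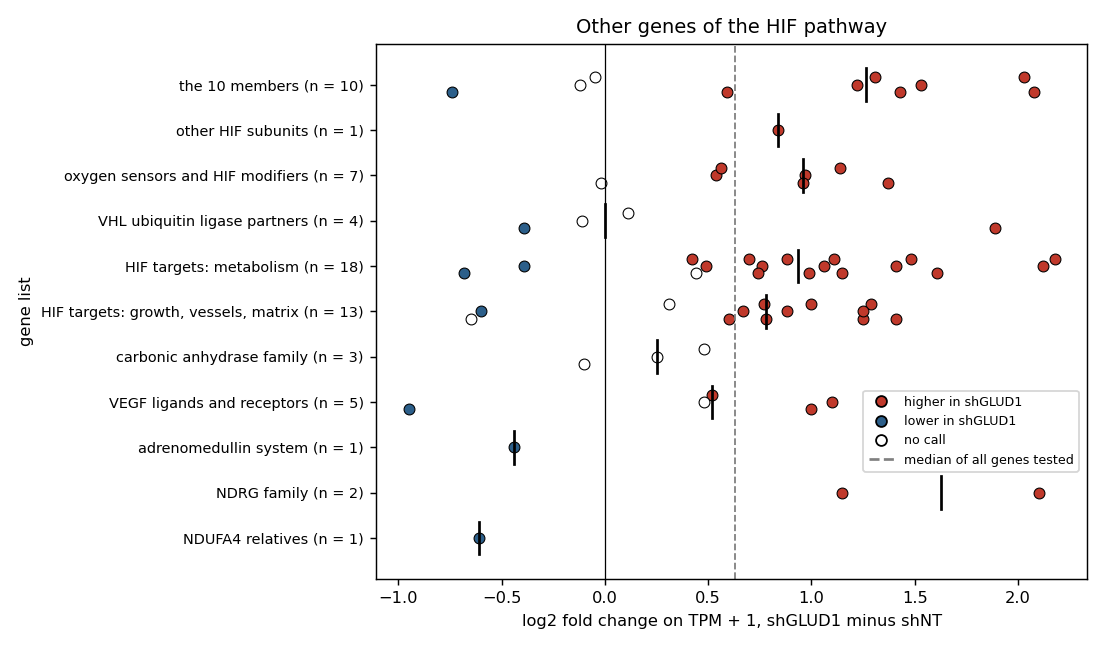
Log2 fold change on TPM + 1 of every tested gene in the 10 pathway lists, with the 10 described genes on top, red for higher, blue for lower, white for no call, and a short line at each list's median. The dashed line is the median of all genes tested (0.63); the lists of targets have medians of 0.94 and 0.78, and their genes called lower lie between -0.68 and -0.39.

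The families of the targets showed which relatives were present. Of 13 other carbonic anhydrases, 3 reached the filter and none passed the test on TPM, against 56.7% of all genes called higher and 7.77% lower. With 3 genes tested, this count says little about the family. CA11, which lacks enzyme activity, was the highest of them at 22.28 and 18.24 TPM in shGLUD1 and 20.57 and 22.89 TPM in shNT (log2 fold change -0.10, limma adjusted p = 0.595, and rescaled -0.84, adjusted p = 0.00387). CA1 and CA8 were listed at 0 throughout. Of the VEGF ligands, VEGFC was higher (12.01 and 16.57 TPM in shGLUD1, 5.98 and 6.10 TPM in shNT; 1.10, limma adjusted p = 9.5e-04), as was VEGFB (0.52), both without a call rescaled (VEGFC 0.40, and VEGFB -0.26, with its sign turned). PGF, the placental growth factor gene, was lower, at 11.97 and 12.39 TPM in shGLUD1 and 23.46 and 25.41 TPM in shNT (-0.95, limma adjusted p = 4.3e-04; rescaled -1.68). FLT1, KDR and FLT4, the receptors of endothelium, did not pass 0.33 TPM in any library, while the co-receptor NRP1 was higher (33.12 and 35.13 TPM in shGLUD1, 15.98 and 17.15 TPM in shNT; 1.00, rescaled 0.25 without a call).

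For adrenomedullin, the receptor CALCRL did not pass 0.27 TPM and its partners RAMP2 and RAMP3 were listed at 0. RAMP1 was at 13.30 and 13.06 TPM in shGLUD1 and 18.10 and 18.32 TPM in shNT (log2 fold change -0.44, limma adjusted p = 0.0313; rescaled -1.17). Its call was lost without shGLUD1 replicate 2, shNT replicate 1 or shNT replicate 2 (highest adjusted p = 0.215) and its sign turned with length and GC trends removed (0.18, adjusted p = 0.362). In the NDRG family, NDRG3 was at 31.49 and 41.33 TPM in shGLUD1 and 7.36 and 7.93 TPM in shNT (2.10, limma adjusted p = 8.9e-06; rescaled 1.38), a larger log2 fold change than that of NDRG1; the difference between the 2 genes was not tested. NDRG4 was higher on TPM (1.15, limma adjusted p = 0.00484; rescaled 0.62 without a call), a call lost without shGLUD1 replicate 2 or shNT replicate 2 (highest adjusted p = 0.0529).

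Of the members, CA12 and ADM had the largest rise and the largest fall on TPM. They were compared with 7445 other genes averaging at least 5 TPM. The genes most like them were found by the root mean square difference of centred log2(TPM + 1) values over the 4 libraries. For CA12 they were IMMT, which shapes the inner mitochondrial membrane (difference 0.0194), EXTL3, a heparan sulfate enzyme (0.0263), and EIF4G3, a translation initiation factor (0.0301). Their log2 fold changes were 2.09, 2.05 and 2.04, beside 2.08 for CA12. For ADM they were SLC25A6, an ADP/ATP carrier (0.0253), WNT5B, a signalling ligand (0.0254), and SERPINB2, a plasminogen activator inhibitor (0.0364), with log2 fold changes of -0.74, -0.72 and -0.68. With 4 libraries in 2 groups, such likeness is mostly a like fold change.

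**Figure D4:**
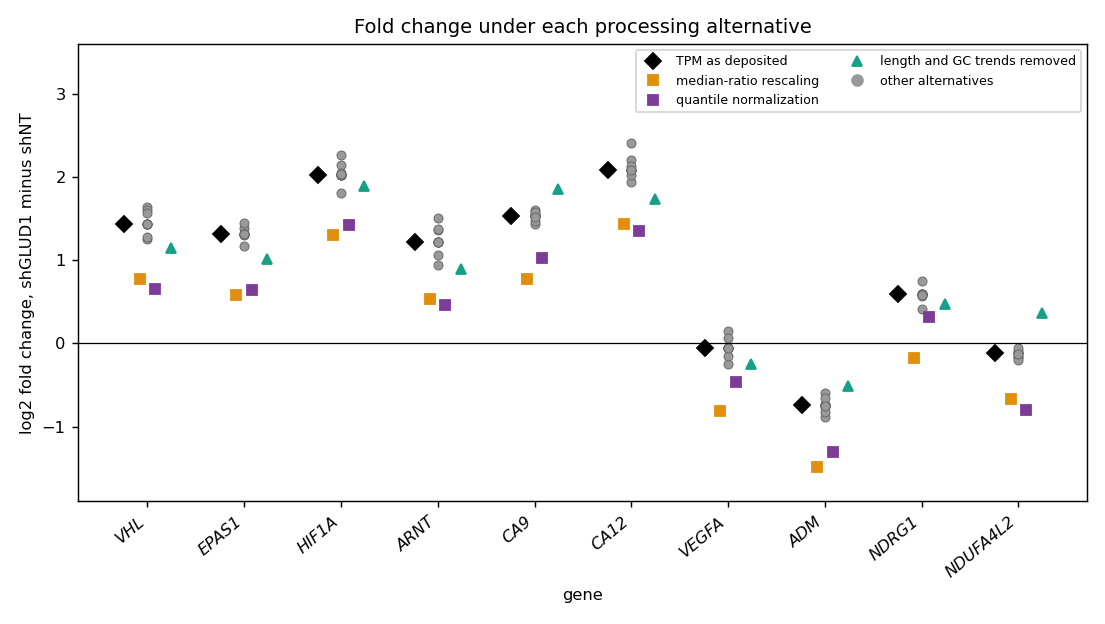
Log2 fold change of each gene under the processing alternatives: black diamonds for TPM as deposited, orange squares for median-ratio rescaling, purple squares for quantile normalization, green triangles with length and GC trends removed, grey circles for the others. VHL, EPAS1, HIF1A, ARNT, CA9 and CA12 stay above 0 and ADM below it under all of them, while NDRG1 falls to -0.18 on rescaling and NDUFA4L2 runs from -0.80 to 0.36.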

How the data were processed

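The TruSeq V2 kit and 1 µg of RNA per library were used, per the labels' protocols. The authors deposited 1 table of TPM for 57820 genes and 4 libraries, each column summing to 1000000, so depth is unknown and no counting interval can be given. Per the submitters' processing notes the tool was Bowtie (0.12.2), and hg38 and mm8 are listed as builds, without roles. The quantifier is not given in the sources used here. The groups come from the sample titles; nothing says that replicates were separate cultures, so the p-values reflect spread that may be only technical.

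Genes averaging at least 1 TPM (12524) were tested on log2(TPM + 1), a scale that understates the change of low genes, with limma 3.58.1 in R 4.3.3 (variance trend, two-sided, Benjamini-Hochberg over all genes, threshold 0.05). Limma borrows spread across genes (prior of 8.8 degrees of freedom). Rescaling used median ratios of TPM over genes above 0 in all libraries (log2 factors 0.29 and 0.51 for shGLUD1, -0.39 and -0.36 for shNT). Named genes were all 10 members, GLUD1, up to 4 passing genes per list with the largest change, and the 3 genes most like the members with the largest rise and fall; others were named after their values were seen. Some list and marker genes enter the counts but are not reported by name here. The members, lists and tests were chosen with earlier results of these data known. Alternatives were another pseudocount (0.1), other filters, rescaling, quantile normalization, no variance trend, a replicate block and leaving out each library; removal of length and GC trends (loess, 97.9% of tested genes with a length) and protein-coding genes only were added after seeing the data. The fit was run on simulated data in which few genes changed, as many up as down. That setting differs from the mostly upward shift here, so the run does not check these calls. Coordinates (GRCh38) are those of GENCODE release 29, in which 52338 of 57820 identifiers were found, and promoters are from RefSeq. Python 3.11.15, pandas 2.3.3, numpy 2.4.6 and matplotlib 3.10.9 were used.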

Additional observations from a re-analysis of the deposited data

How the results depend on the processing

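Of 129 values of the 10 genes under the alternatives, 119 kept direction and call, as did 38 of the 40 with 1 library left out. The exceptions there were VEGFA values above 0 without a call (range with 1 library left out, -0.25 to 0.15). The other exceptions were 7 from scaling and NDUFA4L2, whose sign turned without a call with length and GC trends removed (0.36). Under median-ratio rescaling NDRG1 turned to -0.18, and VEGFA (-0.81) and NDUFA4L2 (-0.67) became lower; under quantile normalization ARNT (0.46) and NDRG1 (0.32) lost their calls, and VEGFA (-0.46) and NDUFA4L2 (-0.80) became lower. GLUD1 became lower rescaled (-0.84) and under quantile normalization (-0.75), and with 1 library left out it ran from -0.37 to 0.15. By construction rescaling lowers nearly all fold changes, and those of low genes by less because of the added pseudocount. LDHA went from 2.18 to 1.41, and EP300, a low gene, from 1.14 to 0.78. Rescaling gave 2846 genes higher and 3557 lower, and quantile normalization 2938 and 2764, against 7105 and 973 on TPM. A mean of at least 5 TPM gave 4676 higher among fewer genes tested. Of the pathway list genes 13 were higher and 13 lower rescaled and 22 higher under quantile normalization, against 38 and 7; with 1 library left out the lower count ran from 4 (without shNT replicate 1) to 7, and the higher count from 31 to 41.

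With 1 library left out, the lone library of its group is assumed to vary like the others. Of 702 values of list genes, 583 kept direction and call, 185 of 220 among those with 1 library left out. Of the genes reported by name, signs turned under rescaling for EGLN2 (-0.23), HIF1AN (-0.17), RBX1 (-0.66), ALDOA (-0.35), ENO1 (-0.01), BNIP3 (-0.03), P4HA2 (-0.27), IGFBP3 (-0.45), LOXL2 (-0.10), KDM3A (-0.16), CA13 and NRP2 (-0.25 each) and VEGFB (-0.26). They turned under quantile normalization for HIF1AN and HK2 (-0.07 each), RBX1 and NRP2 (-0.19 each), KDM3A (-0.28), IGFBP3 (-0.08), CA2 (-0.16) and CA13 (-0.41). With length and GC trends removed they turned for TCEB2 (0.41), RAMP1 (0.18), P4HTM (0.21) and CA11 (0.15). With 1 library left out, ranges that crossed 0 were those of P4HTM (-0.07 to 0.03), TCEB2 (-0.28 to 0.05), CA11 (-0.24 to 0.04) and CA13 (-0.07 to 0.57). Replicate numbers alone do not pair the samples (correlation of the differences between replicates 1 and 2 across genes, 0.039); with the replicate block 7395 genes were higher and 1061 lower, and no call of the 10 genes changed. What depth limits cannot be given from TPM; low genes such as NDUFA4L2 carry the widest intervals.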

Other observations

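Ratios within a library do not depend on scaling between libraries. The ratio of ADM to CA9 TPM, chosen after its values were seen, was 0.305 and 0.335 in shGLUD1 and 1.79 and 1.46 in shNT. That of VEGFA to CA9, chosen likewise, was 0.773 and 0.911 in shGLUD1 and 2.89 and 2.29 in shNT. Within each library labelled shGLUD1 the CA9 level was above those of ADM and VEGFA, although the ranges of CA9 and VEGFA over these libraries overlapped, and within each control it was below both.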
